A study of Mus musculus with 38 samples.

Results

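Ifitm3, Irgm1, Igtp, Rtp4, Irf7 and Irf9 are genes whose transcripts are induced by interferons. They were chosen by symbol, with earlier results of these data known. Each was read by 1 probe set, so the genes described here are 6 of the 15644 that the arrays of this mouse series name. The study profiled murine glioma and normal brain on 38 Affymetrix arrays in 12 groups, using translating ribosome affinity purification, in which tagged ribosomes of a chosen cell population are captured and the RNA bound to them is amplified and hybridised. Each array held either such bound RNA or the total RNA of the dissected tissue.

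The tumours came in 3 variations of the model, labelled Pdgf, Pdgf Cre and Recruited. The labels expand none of these names and say only that tumours were induced. For each variation there were 3 arrays of RNA bound in Olig2 cells, that is, cells with the transcription factor of the oligodendrocyte lineage, and 3 arrays of total tumour RNA. The normal groups were dissected cortex of adult wildtype mice. They comprised bound RNA of cortical oligodendroglia through the Olig2 line (called cortical Olig2 here), astrocytes (Aldh1l1 line), neurons (Snap25 line), progenitors (Pdgfra line) and mature oligodendrocytes (Cnp line) with 3 arrays each, and total cortex RNA with 5 arrays. The mice were of mixed background, with contributions from Swiss-Webster, FVB and c57/bl6j. Cortical samples were pools of several mice, while pooling is not stated for tumours. Whether tumour arrays of 1 variation are separate animals is therefore not given. Unless stated otherwise, p-values measure the spread between arrays shared over all 12 groups in 1 fit, not that of the groups compared alone. So the SE of a gene's difference from cortex was equal in the 3 variations. For Rtp4 in bound RNA it was 0.91, while the SD was 0.31 in Pdgf and 2.57 in Recruited tumours. Olig2 averaged 12.39, 12.55 and 12.70 (log2) in bound RNA of Pdgf, Pdgf Cre and Recruited tumours and 12.47 in that of cortical Olig2 cells, against 6.18 in total cortex RNA. The neuronal gene Snap25 was at 12.83 in the cortical Olig2 group as well. It was at 14.67, 14.04 and 11.40 in progenitor, mature oligodendrocyte and astrocyte bound RNA, against 15.46 in neurons. Aldh1l1 was at 9.02 in cortical Olig2 cells, against 11.45 in astrocytes. In bound RNA of Pdgf, Pdgf Cre and Recruited tumours it was at 2.68, 3.08 and 9.21.

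Interferons bind cell-surface receptors and activate Jak kinases and Stat transcription factors. Irf9 is the DNA-binding part of the complex that type I interferon sends to the interferon-stimulated response element, a promoter element with repeated GAAA cores, and Irf7 is a factor that amplifies type I interferon production once it is induced. Ifitm3 is a membrane protein that restricts the entry of enveloped viruses, Rtp4 is a receptor transporter protein that is also interferon-inducible, and Irgm1 and Igtp (also called Irgm3) are immunity-related GTPases that act at membranes around intracellular pathogens. In brain, microglia and astrocytes are known to respond strongly to interferons, and other neural cells can do so too.

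The stretches of the members' promoters that hold tandem GAAA cores are shown because they are the letters these genes share with each other and with few other promoters. RefSeq (build GRCm38.p6) gave 6 promoter windows of 300 bases, 250 before to 50 after the annotated start, for 5 members, and had no entry for Rtp4. The motif GAAA, any 2 bases and GAAA again was searched on both strands and was found in 3 of the 5 members, Ifitm3, Irgm1 and Igtp, against 3.44% of 32851 promoters of the same length. Capitals below mark its matches, and every stretch is written 5′ to 3′ on the gene's strand.
Irgm1, chr11:48871421-48871480, minus strand, bases -60 to -1 from the start: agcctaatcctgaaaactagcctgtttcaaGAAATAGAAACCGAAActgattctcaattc
Igtp, chr11:58199496-58199555, plus strand, bases -60 to -1: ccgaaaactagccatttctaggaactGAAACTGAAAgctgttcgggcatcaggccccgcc
Ifitm3, chr7:141010715-141010774, minus strand, bases -30 to 30: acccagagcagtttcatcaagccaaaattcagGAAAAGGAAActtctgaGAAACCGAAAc
Irgm1 holds 2 matches that overlap (-30 to -21 and -24 to -15), Igtp holds 1 (-34 to -25), and both matches of Ifitm3 lie after the annotated start (3 to 12 and 20 to 29). The same motif with a C after it, which overlaps the first one by construction, was found in Ifitm3 and Irgm1, 2 of 5, against 0.819% of promoters. TTC, any 3 bases and GAA, the letters of a Stat dimer site searched likewise, was found in Ifitm3 and Igtp, 2 of 5, against 8.3%. None of these letters was in the windows of Irf7 or Irf9.

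Levels below are log2 values after quantile normalization of the deposited values over the 38 arrays, and they are compared between arrays for 1 gene, not between genes. A level of 5.64, a signal of 50, is the limit under which a value is called dim, and a fold against a group that is dim on all its arrays is given as a lower bound, computed against that limit. A gene was tested if it passed the limit on 3 arrays or more, which left 9799 genes. Ifitm3, Irgm1, Igtp, Rtp4 and Irf9 passed, on 27, 27, 31, 17 and 17 arrays, and Irf7 did not, with 0 arrays above the limit. A call means an adjusted p under 0.05 (limma, Benjamini-Hochberg over all tested genes) and a change of at least 2-fold. Array 3 of Recruited total RNA correlated better over the tested genes with a total cortex array (r = 0.889) than with the other arrays of its own group (0.8852 and 0.8612), and array 1 of the Recruited and Pdgf Cre tumours stood apart for the interferon genes, so the members' differences are also given without those arrays. In tissue RNA, fewer cells of a type and less RNA per cell cannot be told apart.

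**Figure D1:**
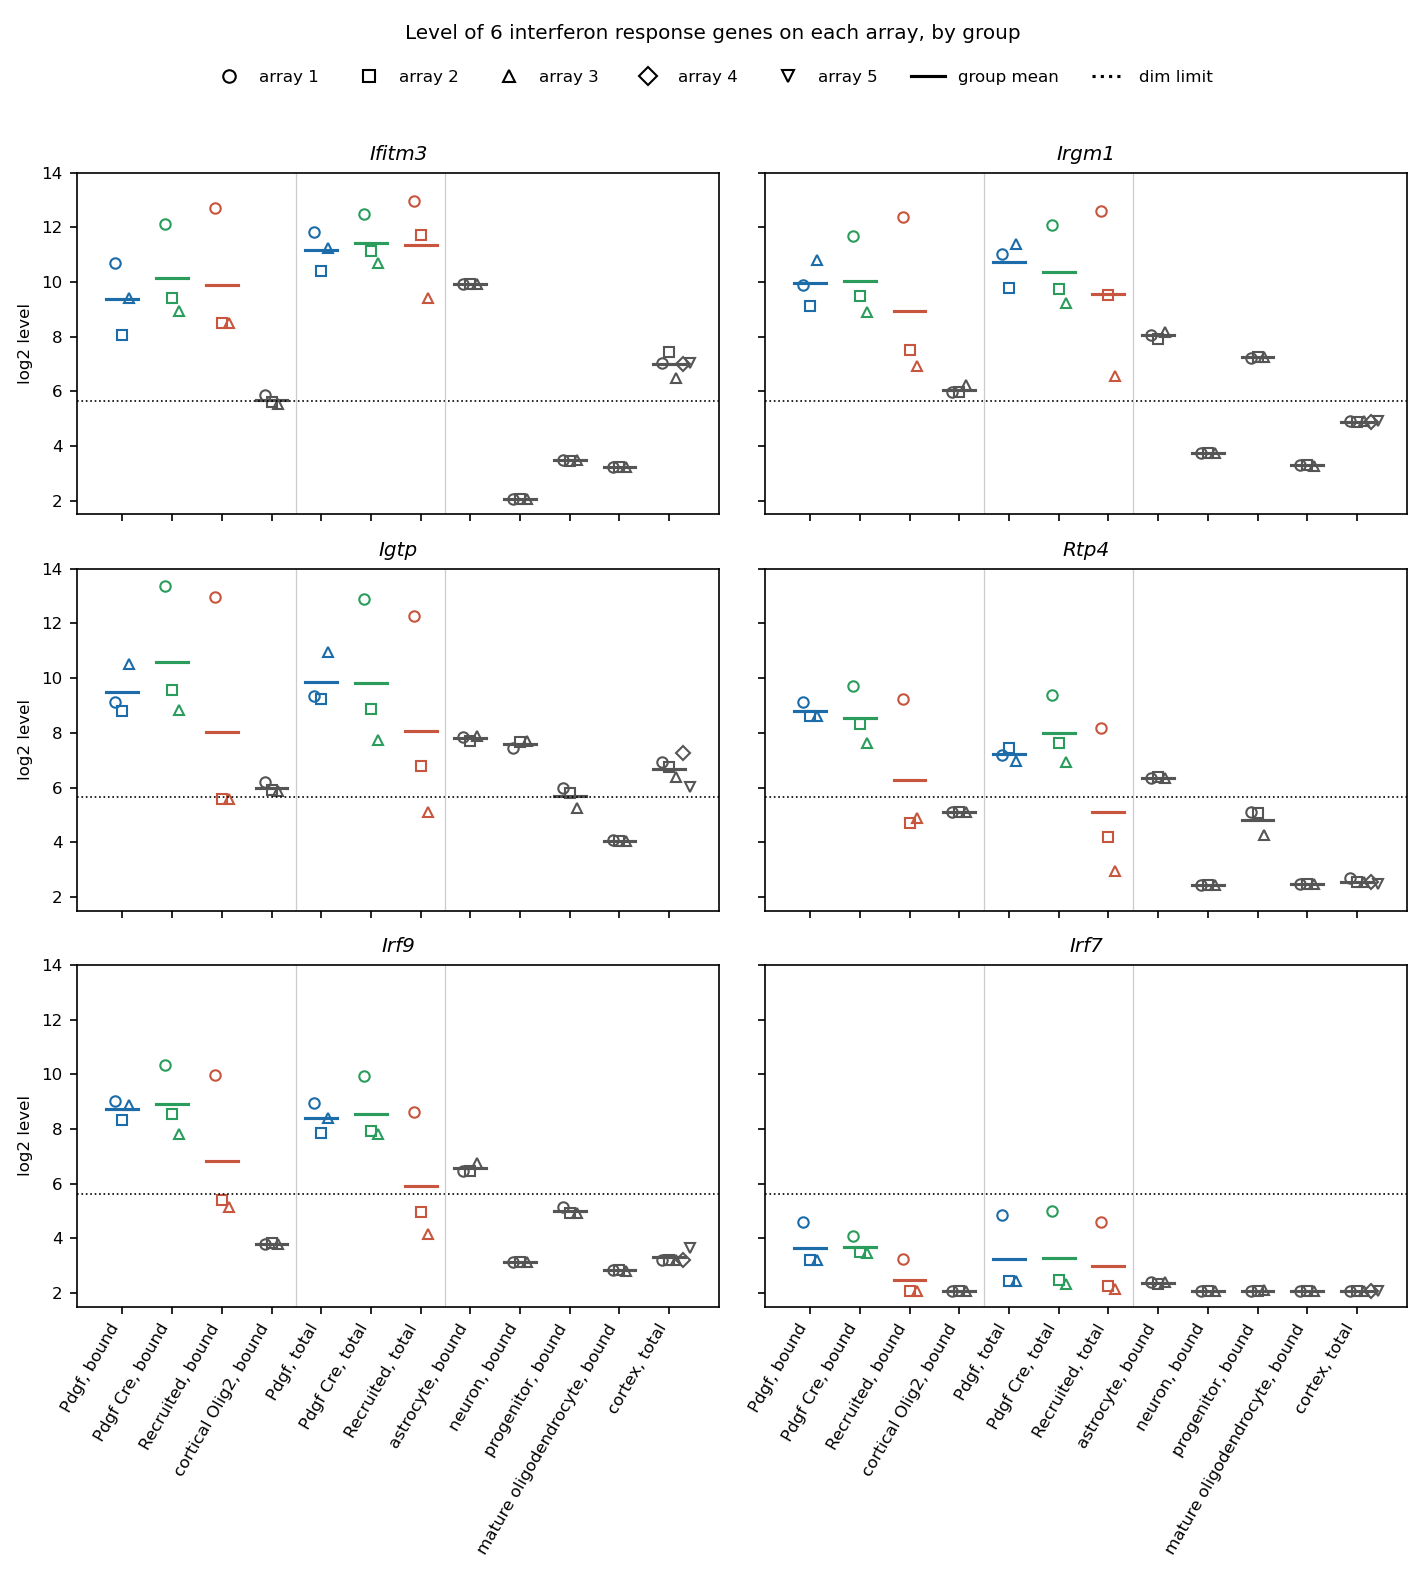
Level of the 6 genes (log2, vertical axis) on each of 38 arrays, by group (horizontal axis). Symbols give the array number, bars the group mean and the dotted line the dim limit at 5.64. In Pdgf Cre and Recruited tumours array 1 is the highest symbol for the 5 tested genes, and Irf7 stays under the limit on every array.

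Ifitm3 was high in total RNA of all tumour variations and on every array. Its levels on arrays 1, 2 and 3 were 11.84, 10.41 and 11.23 in Pdgf, 12.49, 11.13 and 10.70 in Pdgf Cre and 12.96, 11.71 and 9.43 in Recruited total RNA, against 7.03, 7.44, 6.47, 7.01 and 7.04 in total cortex RNA. No tumour array overlapped the cortex arrays. The differences were 4.16 ± 0.77, 4.44 ± 0.77 and 4.37 ± 0.77 log2 (SE), or 17.9-fold, 21.7-fold and 20.6-fold higher in Pdgf, Pdgf Cre and Recruited tumours (adjusted p = 2.03e-05, 8.76e-06 and 1.08e-05, limma).
In bound RNA of Olig2 cells, Ifitm3 measured 10.70, 8.04 and 9.43 in Pdgf, 12.13, 9.43 and 8.93 in Pdgf Cre and 12.72, 8.48 and 8.50 in Recruited tumours, against 5.89, 5.61 and 5.53 in cortical Olig2 cells. Again no tumour array overlapped. The rise was 13.2-fold, 22.4-fold and 18.7-fold (adjusted p = 0.000574, 5.47e-05 and 0.000165, limma). Without array 1 of the Recruited group the difference was 3.57 in total RNA (adjusted p = 0.0005) and 2.81 in bound RNA (adjusted p = 0.00379, limma), so Ifitm3 kept its call there. Without Recruited total array 3 the total RNA difference was 5.34, and without Pdgf Cre array 1 the Pdgf Cre difference was 3.91 in total and 3.50 in bound RNA (adjusted p = 0.000286 and 0.00142). A fit of only the groups compared did not call Ifitm3 in Recruited bound RNA (adjusted p = 0.0507).

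Irgm1 was dim in total cortex RNA and above the limit on every tumour array. It measured 11.02, 9.79 and 11.40 in Pdgf, 12.09, 9.74 and 9.24 in Pdgf Cre and 12.59, 9.54 and 6.58 in Recruited total RNA, while the 5 cortex arrays lay between 4.87 and 4.91. The differences of 5.84 ± 0.95, 5.46 ± 0.95 and 4.67 ± 0.95 correspond to at least 34.1-fold, 26.2-fold and 15.2-fold higher signal in tumours (adjusted p = 3.32e-06, 9.87e-06 and 7.7e-05, limma).
In bound RNA it measured 9.90, 9.13 and 10.82 in Pdgf, 11.69, 9.47 and 8.90 in Pdgf Cre and 12.37, 7.51 and 6.91 in Recruited tumours, against 5.97, 5.99 and 6.25 in cortical Olig2 cells. The rise was 14.7-fold, 15.5-fold and 7.27-fold (adjusted p = 0.00293, 0.00222 and 0.0265, limma). Arrays 2 and 3 of the Recruited tumours were closer to the cortical arrays than any Pdgf array, and without Recruited array 1 the bound difference was 1.14 (adjusted p = 0.355). The call was also lost without cortical Olig2 array 1 or 2 (adjusted p = 0.0608 and 0.060). In total RNA it was 3.16 without that array (adjusted p = 0.00418) and 6.17 without array 3, called in both cases. Without Pdgf Cre array 1 the Pdgf Cre difference was 4.59 in total and 3.12 in bound RNA (adjusted p = 0.000408 and 0.0246). In a fit of only the groups compared the Recruited bound difference was not called (adjusted p = 0.203).

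Igtp had the widest spread between tumour arrays of the 5 tested members in 5 of the 6 tumour groups. In total RNA it measured 9.36, 9.24 and 10.96 in Pdgf, 12.91, 8.87 and 7.74 in Pdgf Cre and 12.28, 6.77 and 5.09 in Recruited tumours, against 6.95, 6.75, 6.38, 7.27 and 6.02 in cortex. All Pdgf and Pdgf Cre arrays lay above the cortex arrays, and Recruited arrays 2 and 3 lay within or below them. The differences were 3.18 ± 1.35 (9.05-fold, adjusted p = 0.0357), 3.16 ± 1.35 (8.97-fold, adjusted p = 0.0375) and, not called, 1.38 ± 1.35 (adjusted p = 0.361, limma). The Pdgf Cre difference was 1.63 without array 1 (adjusted p = 0.329), and the call was also lost without cortex array 2, 3 or 5 (adjusted p = 0.0505, 0.0568 and 0.0637). The Pdgf call was lost without Pdgf array 1 or 3 (3.43 and 2.62, adjusted p = 0.0535 and 0.135) and without cortex array 3 or 5 (adjusted p = 0.0545 and 0.0607). With the replicate number as a block, the adjusted p was 0.0856 in Pdgf and 0.0754 in Pdgf Cre.
In bound RNA Igtp measured 9.15, 8.80 and 10.52 in Pdgf, 13.38, 9.56 and 8.82 in Pdgf Cre and 12.96, 5.57 and 5.59 in Recruited tumours, against 6.19, 5.91 and 5.86 in cortical Olig2 cells. Pdgf Cre passed the test, at 24.2-fold (adjusted p = 0.0103, and 0.0953 without array 1). The Pdgf difference of 3.50 ± 1.51 had an adjusted p of 0.051 although no array overlapped, and it was called on the deposited scale (3.71, adjusted p = 0.0318), on spike-in scaling (3.67, adjusted p = 0.0188) and in a fit of only the groups compared (adjusted p = 0.00264). The count of called members in Pdgf bound RNA is therefore 4 or 5 of 5, depending on these settings, and the Recruited difference of 2.05 ± 1.51 became -0.41 without array 1.

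Rtp4 was dim in total cortex RNA (2.46 to 2.69) and in cortical Olig2 cells (5.12 on each array). In total RNA it measured 7.20, 7.45 and 6.98 in Pdgf, 9.40, 7.64 and 6.93 in Pdgf Cre and 8.19, 4.20 and 2.95 in Recruited tumours. The rise over cortex was at least 2.96-fold in Pdgf and at least 5.08-fold in Pdgf Cre (adjusted p = 8.52e-06 and 8.54e-07, limma). The Recruited difference of 2.56 ± 0.81 was called (adjusted p = 0.00582), but 2 of its 3 arrays were dim and so was its mean, and without array 1 it was 1.02 (adjusted p = 0.213), against 3.64 without array 3. A fit of only the groups compared did not call it either (adjusted p = 0.065). The Pdgf Cre difference without array 1 was 4.73 in total and 2.85 in bound RNA (adjusted p = 4.45e-05 and 0.0173).
In bound RNA Rtp4 measured 9.14, 8.61 and 8.60 in Pdgf, 9.71, 8.34 and 7.62 in Pdgf Cre and 9.26, 4.72 and 4.90 in Recruited tumours. It was at least 8.83-fold and 7.51-fold higher in Pdgf and Pdgf Cre than in cortical Olig2 cells (adjusted p = 0.00111 and 0.00181, limma), and Recruited arrays 2 and 3 lay below the cortical ones (difference 1.17 ± 0.91, adjusted p = 0.295).

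Irf9 was dim in cortex and above the limit on all Pdgf and Pdgf Cre arrays. In total RNA it measured 8.96, 7.86 and 8.40 in Pdgf, 9.94, 7.91 and 7.81 in Pdgf Cre and 8.62, 4.97 and 4.16 in Recruited tumours, against 3.22, 3.22, 3.22, 3.21 and 3.65 in cortex, all of them dim. It was at least 6.79-fold, 7.52-fold and 1.21-fold higher in Pdgf, Pdgf Cre and Recruited tumours (adjusted p = 1.64e-06, 1.15e-06 and 0.00443, limma). In bound RNA it measured 9.01, 8.32 and 8.87 in Pdgf, 10.35, 8.54 and 7.83 in Pdgf Cre and 9.97, 5.41 and 5.14 in Recruited tumours, against 3.80 to 3.82 in cortical Olig2 cells. The rise was at least 8.51-fold, 9.6-fold and 2.29-fold (adjusted p = 2.97e-05, 1.58e-05 and 0.00574, limma). Both Recruited calls were lost without array 1, with differences of 1.26 in total RNA (adjusted p = 0.144) and 1.47 in bound RNA (adjusted p = 0.119). Without array 3 the Recruited total difference was 3.49, and without Pdgf Cre array 1 the Pdgf Cre difference was 4.56 in total and 4.38 in bound RNA (adjusted p = 5.8e-05 and 0.000368). In a fit of only the groups compared the Recruited bound difference was not called (adjusted p = 0.15).

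Irf7 was dim on all arrays, so it was not tested and has no fold change here. Values under the dim limit are given as they are, and no order is read from them. The highest level was 4.59, 4.08 and 3.23 in Pdgf, Pdgf Cre and Recruited bound RNA and 4.85, 4.99 and 4.59 in total RNA of the same variations. Total cortex RNA averaged 2.08 and cortical Olig2 cells were at 2.08, the lowest value of the scale.

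Over the tested members, 5, 5 and 4 of 5 were called higher in Pdgf, Pdgf Cre and Recruited total RNA than in total cortex RNA, where 25%, 22.8% and 23.7% of all tested genes were called higher. The median difference of the members was 4.65, 5.25 and 2.61 log2, against 0, -0.05 and -0.08 for all tested genes. In bound RNA 4, 5 and 3 of 5 were called higher than in cortical Olig2 cells, with 16%, 17.7% and 12.9% of all genes, and the medians were 3.72, 4.49 and 2.86 for members and 0.06, 0.03 and -0.00 for all genes. None was called lower, where 25.5%, 25% and 26.4% of genes were lower in total RNA and 16%, 18.3% and 14.6% in bound RNA. Irgm1, Rtp4 and Irf9 were dim on every total cortex array, and Rtp4 and Irf9 on every cortical Olig2 array. A lower call was hardly open to them there. Rtp4 and Irf9 passed the filter only through tumour and astrocyte arrays, and Irf7, dim throughout, is not in these counts. Without array 1 the Recruited counts were 2 of 5 in total RNA and 1 of 5 in bound RNA, and the share of all genes was not counted there. The 3 total RNA comparisons share the cortex arrays, and the 3 bound comparisons share the cortical Olig2 arrays. The members were chosen with earlier results of these data known, so their counts are a description and not a test of the set.

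**Figure D2:**
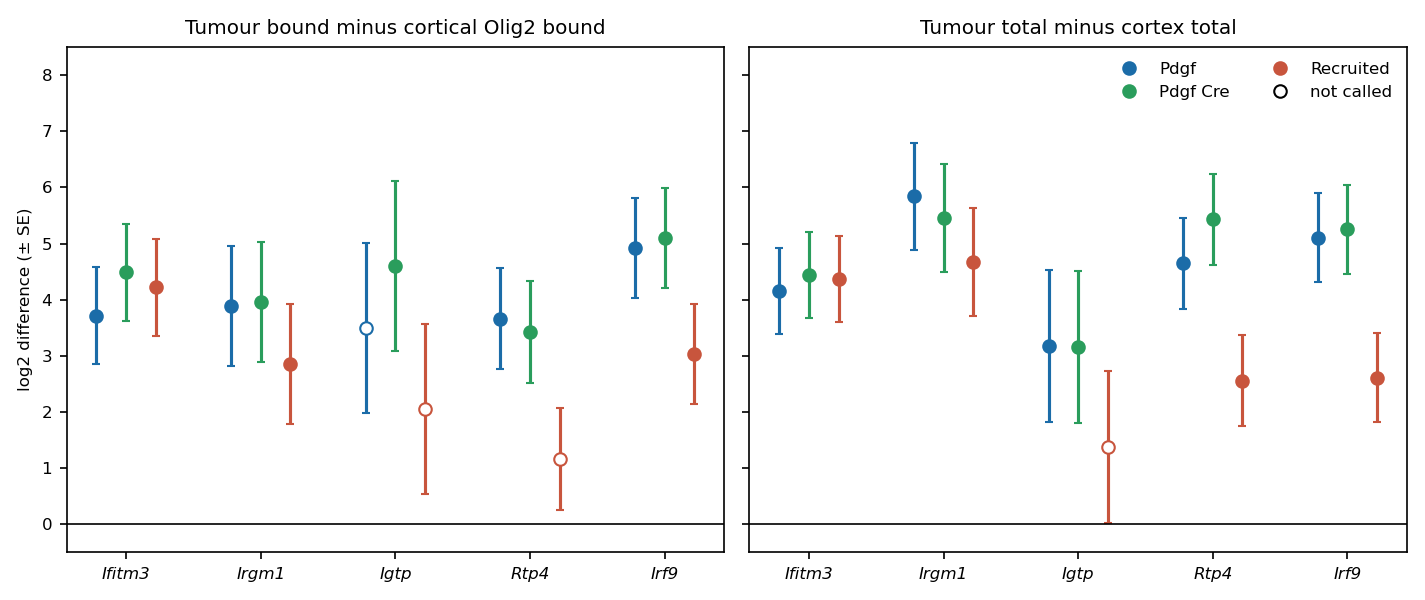
Difference in log2 level of the 5 tested genes (vertical axis, bars ± SE) between tumour and cortex, in bound RNA (left) and total RNA (right), for Pdgf, Pdgf Cre and Recruited tumours with 3 arrays each. Open circles did not pass the test: Igtp in Pdgf and Recruited bound RNA and in Recruited total RNA, and Rtp4 in Recruited bound RNA.

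In Pdgf Cre and Recruited tumours the arrays of 1 variation differed from each other more for the 5 tested members than for the median gene. Array 1 was the highest for 5 of 5 tested members in Pdgf Cre bound and total RNA and in Recruited bound and total RNA, where it was highest for 27.3%, 31.8%, 38.3% and 25% of all tested genes. They all exceeded both other arrays by at least 2-fold there, as did 1.1%, 2.14%, 5.31% and 3.82% of tested genes. Array 3 was the lowest for 5 of 5 tested members in Pdgf Cre bound RNA, Pdgf Cre total RNA and Recruited total RNA, where it was lowest for 29.3%, 25.4% and 39.3% of tested genes, and for 2 of 5 in Recruited bound RNA (29.5% of genes). Array 3 of Recruited total RNA was also the highest for 9 of 9 tested neuron markers and 6 of 7 mature oligodendrocyte markers, and their part in the members' levels was not tested.
The range of Igtp was 7.40 log2 (168-fold) in Recruited bound RNA, rank 14 of all tested genes, and 7.19 (146-fold, rank 22) in Recruited total RNA. In Pdgf Cre it was 4.56 (23.6-fold, rank 12) in bound and 5.17 (36-fold, rank 16) in total RNA. The median range of all tested genes was 0.56, 0.86, 0.22 and 0.30 in those groups, in the same order. The other tested members ranged over 3.54 to 6.01 log2 in Recruited and 1.79 to 3.20 in Pdgf Cre tumours.
Pdgf tumours were more even. Irgm1 and Igtp were highest on array 3, in bound and in total RNA, whereas Ifitm3 and Irf9 were highest on array 1. On spike-in scaling, however, Ifitm3 and Irf9 were both highest on array 3 in bound RNA, and on arrays 3 and 2 in total RNA. The members' ranges were 0.54 to 2.66 in bound and 0.46 to 1.72 in total RNA, against medians of 0.34 and 0.39 for all tested genes. Rtp4 varied least, with 34.3% and 43.9% of genes having as large a range. For Irf9 these shares were 24.4% and 13.8%. For Ifitm3, Irgm1 and Igtp they were 0.725%, 2.72% and 2.6% in bound and 7.53%, 5.61% and 4.81% in total RNA. In total RNA on spike-in scaling, Rtp4 ranged more widely than Ifitm3 and Irf9.

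**Figure D3:**
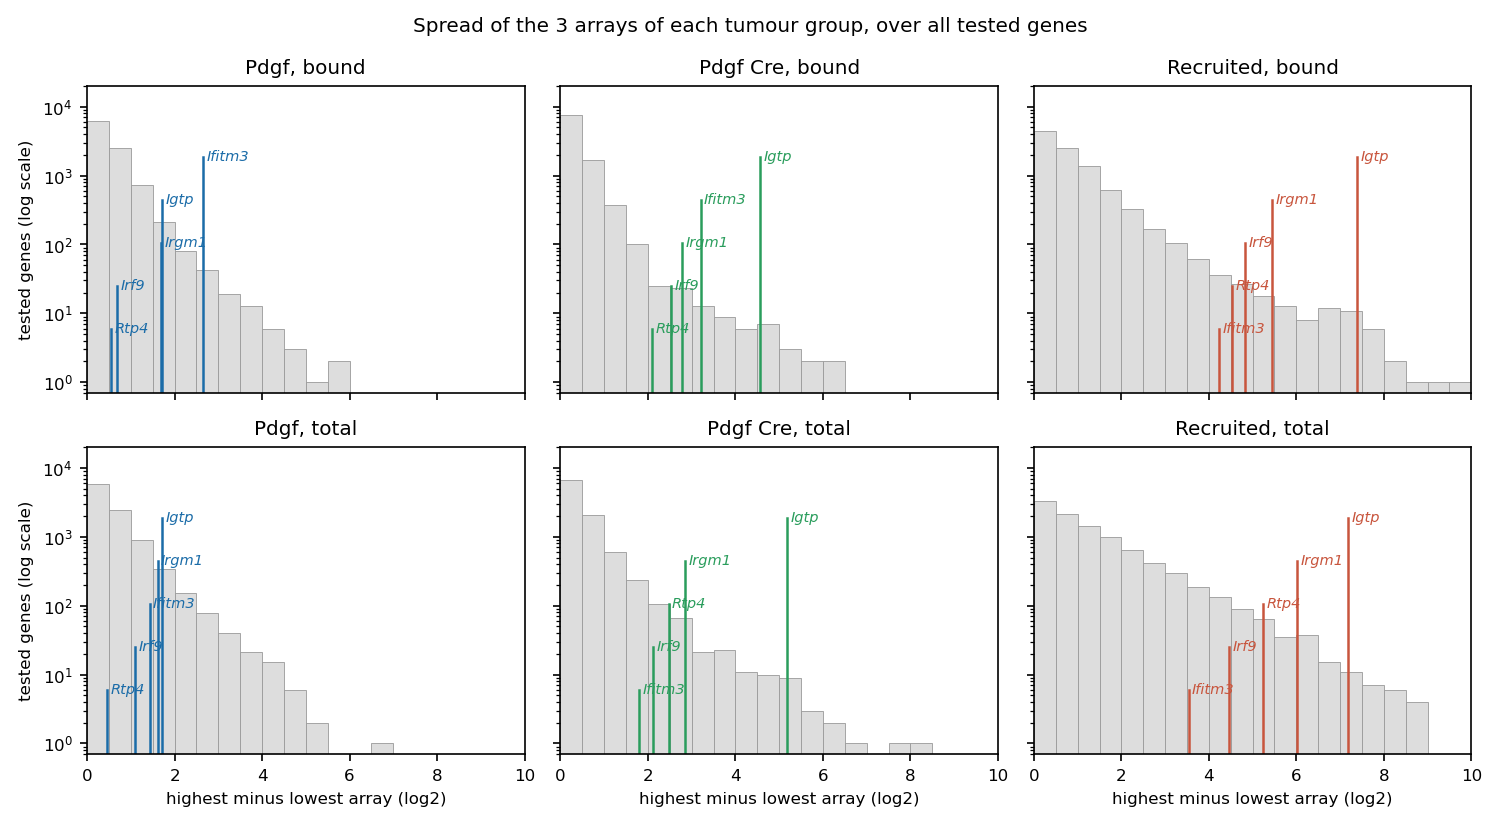
Number of tested genes (vertical log axis) by the range between the highest and lowest of 3 arrays (horizontal axis, log2, bins of 0.5) in each tumour group, with the 5 tested members marked by lines whose heights carry no value. The lines lie in the right tail in Recruited and Pdgf Cre tumours, up to 7.40 for Igtp. In Pdgf tumours Rtp4 and Irf9 lie nearer to the bulk than Ifitm3, Irgm1 and Igtp.

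Bound RNA was then set against total RNA of the same variation, to see whether the members were enriched in Olig2 cells. None of the 5 was called in Pdgf, Pdgf Cre or Recruited tumours (limma), and 0 had an unadjusted p under 0.05, while 32.2%, 38% and 44.3% of all genes were called in 1 direction or the other. Same-numbered bound and total arrays deviated together, so each pair's difference is given too.
Ifitm3 was lower in bound RNA in 9 of 9 pairs, with differences of -3.22 to -0.24 log2, and its mean differences were -1.76, -1.28 and -1.47 in Pdgf, Pdgf Cre and Recruited tumours (adjusted p = 0.0854, 0.205 and 0.134). On spike-in scaling it was lower in 8 of 9. With the pair as a block, the Recruited difference passed the test (adjusted p = 0.0376). Without both arrays numbered 1, the unblocked difference was -2.08 in Pdgf and -1.73 in Pdgf Cre tumours, not called (adjusted p = 0.104 and 0.132), and -2.08 in Recruited tumours, called (adjusted p = 0.0203). On spike-in scaling the difference was called in Pdgf and Recruited tumours (adjusted p = 0.0429 and 0.0425).
Irgm1 was lower in 8 of 9 pairs, with mean differences of -0.79, -0.34 and -0.64. Igtp was higher in 5 of 9 pairs, and its mean differences were -0.36, 0.75 and -0.01.
Rtp4 was higher in bound RNA in 9 of 9 pairs, by 0.31 to 1.94 log2, with mean differences of 1.58, 0.56 and 1.17 (adjusted p = 0.146, 0.617 and 0.256). On the deposited scale it was higher in 7 of 9, and with the pair as a block the Recruited difference passed the test (adjusted p = 0.0142). Irf9 was higher in 9 of 9 pairs (means 0.32, 0.35 and 0.92), but in 5 of 9 on the deposited scale and on spike-in scaling. Without both Recruited arrays numbered 1, the Recruited differences were 1.23 for Rtp4, called (adjusted p = 0.0418), and 0.71 for Irf9, not called (adjusted p = 0.261). A fit of only the groups compared called Rtp4 in Pdgf tumours (adjusted p = 0.00241).

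The difference between bound and total RNA in tumours, averaged over the 3 variations, was also compared with that in cortex (cortical Olig2 bound minus total cortex). Again 0 of 5 members were called and 0 had an unadjusted p under 0.05 (limma), against 43.8% of all genes. Irgm1 was -0.59 in tumours and 1.17 in cortex, a difference of -1.76 (adjusted p = 0.177), and Rtp4 was 1.10 in tumours and 2.56 in cortex, a difference of -1.46 (adjusted p = 0.186). With the number as a block, both were called, Irgm1 at -1.76 (adjusted p = 2.89e-05) and Rtp4 at -1.42 (adjusted p = 5.25e-05). This block also joined same-numbered cortical Olig2 and total cortex arrays, whose deviations correlated at -0.0188, 0.0587 and 0.214. Both blocked values thus rest in part on a pairing that the cortex arrays did not show. Without both Recruited arrays numbered 1, Irgm1 and Rtp4 passed unblocked, at -1.83 (adjusted p = 0.0258) and -1.44 (adjusted p = 0.00851). Between tumour variations, the bound minus total difference was called for 0 of 5 members in each pair (limma), against 12.3% of genes in Pdgf Cre against Pdgf, 30% in Recruited against Pdgf and 26.7% in Recruited against Pdgf Cre.

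**Figure D4:**
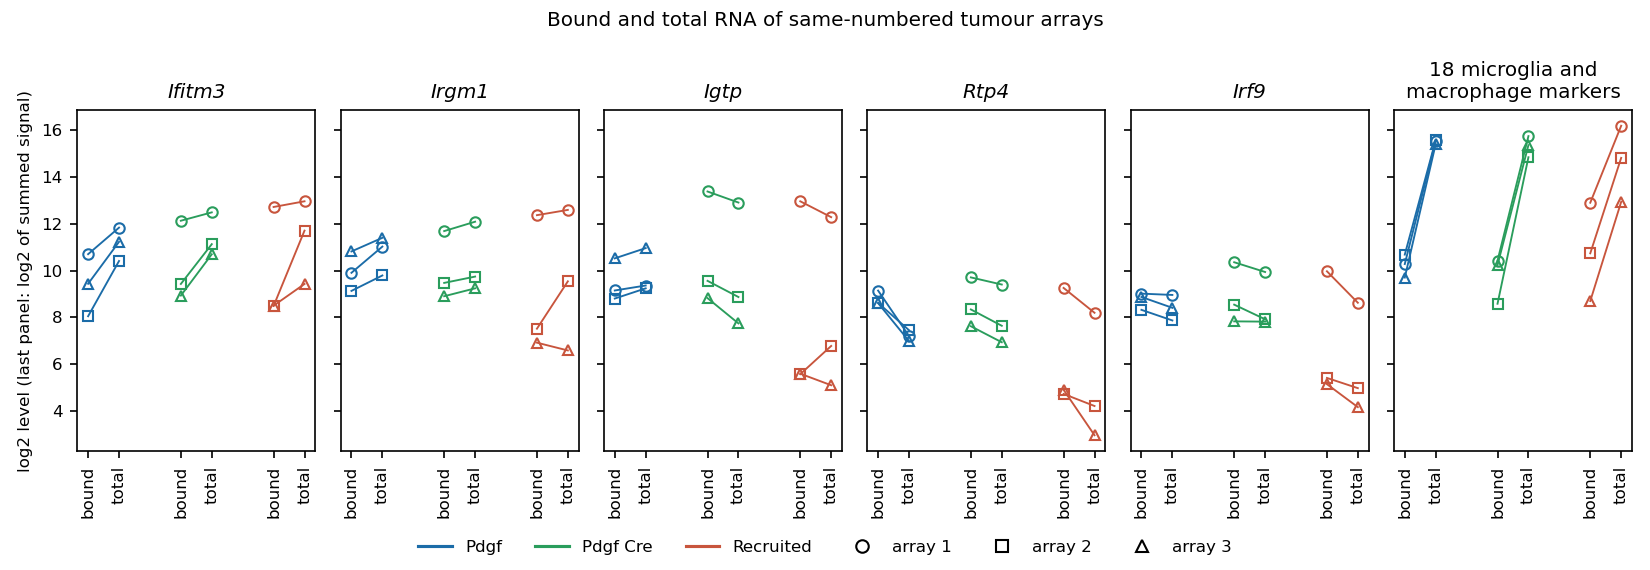
Log2 level of the 5 tested genes in bound and total RNA of same-numbered tumour arrays (vertical axis), and in the last panel the log2 of the summed signal of 18 microglia and macrophage markers. Lines join arrays with the same number. Ifitm3 is lower and Rtp4 higher on the bound side of all 9 pairs, and the marker sum is far lower in bound than in total RNA. The sum is taken on linear signal, so the highest markers weigh most.

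Between tumour variations, Rtp4 and Irf9 were the members that differed. Rtp4 was lower in Recruited than in Pdgf tumours, with -2.50 in bound (adjusted p = 0.0239) and -2.09 in total RNA (adjusted p = 0.0494), and lower than in Pdgf Cre tumours, with -2.26 (adjusted p = 0.0338) and -2.87 (adjusted p = 0.00755, limma). Irf9 was lower in Recruited than in Pdgf Cre bound RNA (-2.07, adjusted p = 0.0483), Pdgf total RNA (-2.49, adjusted p = 0.0184) and Pdgf Cre total RNA (-2.64, adjusted p = 0.0121). Its bound difference from Pdgf was -1.90 (adjusted p = 0.081).
These 7 calls compare with 13% and 17% of genes called lower in Recruited than in Pdgf and Pdgf Cre bound RNA, and 17.8% and 18.7% in total RNA. Array 1 of the Recruited group was level with the other variations for both genes. Leaving it out brought the members called lower to 4 of 5 in each comparison except Recruited against Pdgf Cre total RNA, where they were 3. The share of all genes called lower was not counted without that array. Without array 1 of the Pdgf or Pdgf Cre group in the comparison, or without Recruited array 3, each of the 4 counts was 0, and without Recruited array 2 they were 0, 0, 0 and 1. On the deposited scale 0 members were lower in Recruited than in Pdgf Cre bound and Pdgf total RNA and 1 in Pdgf Cre total RNA, and a fit of only the groups compared called 0 in each. Between Pdgf Cre and Pdgf tumours 0 of 5 members were called with 0 at an unadjusted p under 0.05, in bound and in total RNA (limma), against 16.6% and 21.1% of genes.

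Among normal cortical populations, astrocytes had the highest mean level of Ifitm3, Irgm1, Rtp4 and Irf9 on all 3 scales. Ifitm3 was 9.93 ± 0.02 in astrocytes (SD, n = 3), within the range of the tumour bound arrays. Its deposited value was equal on astrocyte arrays 1 and 3 (9.90), so this SD may understate the spread of replicates. Ifitm3 was 7.63-fold higher in astrocytes than in total cortex RNA (adjusted p = 0.00104), and Irgm1, Rtp4 and Irf9 were at least 5.3-fold, 1.63-fold and 1.9-fold higher (adjusted p = 0.00371, 0.000107 and 0.000502, limma). With Igtp not called (1.15 ± 1.35, called in a fit of only the groups compared with adjusted p = 0.00494), 4 of 5 members were higher, against 31.1% of genes.
Ifitm3 was dim in neurons (2.08), mature oligodendrocytes (3.23) and progenitors (3.48), and at least 2.56-fold lower in each than in total cortex RNA (adjusted p = 3.15e-06, 7.25e-05 and 0.00018, limma). It was the 1 member called lower in them on the quantile scale, where 14.8%, 27.7% and 23.8% of genes were. Irgm1 and Igtp were also called lower in mature oligodendrocytes on the deposited scale (adjusted p = 0.0195 and 0.0229) and on spike-in scaling (adjusted p = 0.0083 and 0.0103), as was Irgm1 in neurons on spike-in scaling (adjusted p = 0.0328). Irgm1 was at least 3.03-fold higher in progenitors, at 7.24 (adjusted p = 0.0293), a call lost without any 1 of its arrays (adjusted p = 0.0628 to 0.0636) and with the replicate number as a block (adjusted p = 0.0748). Rtp4 was also called higher in progenitors and in cortical Olig2 cells (adjusted p = 0.0143 and 0.00539), but it was dim in both and in cortex, so no fold is given. That made 2 of 5 members higher in progenitors and 1 of 5 in cortical Olig2 cells, against 24.4% and 29.5% of genes. Igtp was 7.82 ± 0.10 in astrocytes and 7.60 ± 0.15 in neurons (SD, n = 3 each), and this order turned on the other scales, with 7.31 to 7.62 in astrocytes and 7.92 to 8.21 in neurons on the deposited scale and 6.99 to 7.18 and 7.68 to 7.98 on spike-in scaling.
In the order of all 12 groups on the quantile scale, tumour groups held the top ranks for Irgm1 and Igtp (6 of 6 above astrocytes), with neighbouring groups overlapping down to astrocytes. For Ifitm3 all 6 tumour groups and astrocytes lay above total cortex RNA without overlap. For Rtp4 and Irf9 the 4 Pdgf and Pdgf Cre groups came first, and the Recruited groups overlapped astrocytes, or progenitors, or both.

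Other genes of the pathway were counted by role, and each count is read against the share of all tested genes called higher in Pdgf, Pdgf Cre and Recruited tumours, which was 25%, 22.8% and 23.7% in total and 16%, 17.7% and 12.9% in bound RNA. Of the interferon ligands, 3 were measured and 0 passed the filter. Of 5 tested receptors, 3, 3 and 3 were higher in Pdgf, Pdgf Cre and Recruited total RNA than in total cortex RNA, and 2, 3 and 1 were higher in bound RNA than in cortical Olig2 cells. Ifngr2, a chain of the interferon gamma receptor, was at least 2.73-fold lower in Pdgf total RNA (adjusted p = 8.62e-12) and at least 2.45-fold higher in Pdgf Cre bound RNA (adjusted p = 6.66e-11, limma).
Of 8 Jak-Stat and feedback genes, 5, 5 and 3 were higher in total and 3, 3 and 2 in bound RNA. Usp18, an inhibitor of interferon receptor signalling, was at least 3.91-fold and 4.64-fold higher in Pdgf and Pdgf Cre bound RNA. Socs3, a feedback inhibitor of cytokine signalling, was at least 4.66-fold, 5.48-fold and 5.71-fold higher in Pdgf, Pdgf Cre and Recruited bound RNA (adjusted p = 3.93e-06, 1.62e-06 and 2.09e-06). The kinase Jak1 fell in total RNA of all variations, by 3.52, 1.83 and 2.20 log2.
Of 6 other interferon regulatory factors, 3, 3 and 4 were higher in total RNA. In bound RNA 1, 1 and 1 were higher, a share near that of all genes, with median differences of 0.02, -0.18 and 0.10 log2. That gene was Irf8, a factor of myeloid cells, at least 14.3-fold, 19.4-fold and 1.14-fold higher in Pdgf, Pdgf Cre and Recruited bound RNA than in cortical Olig2 cells (adjusted p = 1.64e-07, 4.99e-08 and 0.00183, limma). Of 9 nucleic acid sensors and adaptors, 6, 6 and 6 were higher in total and 2, 3 and 2 in bound RNA, with the RNA sensor Ifih1 at least 1.55-fold, 1.22-fold and 1.37-fold higher in bound RNA. Genes called lower in Pdgf, Pdgf Cre and Recruited tumours numbered 1, 0 and 0 receptors in total and 0, 0 and 1 in bound RNA, and 0, 1 and 1 regulatory factors in total and 0, 2 and 2 in bound RNA. Of the sensors 1 was lower, in Pdgf Cre bound RNA, and of the Jak-Stat genes Jak1 was the one lower, in total RNA.

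Of 20 tested antiviral effectors, 14, 16 and 13 were higher in Pdgf, Pdgf Cre and Recruited total RNA and 10, 10 and 5 in bound RNA. Oasl2, of the oligoadenylate synthetase family, was at least 3.08-fold, 5.87-fold and 1.12-fold higher in bound RNA, and Parp9, which takes part in interferon signalling, was at least 4.98-fold, 4.48-fold and 2.25-fold higher in total RNA. One effector was lower in total RNA of each variation and 1 in Pdgf Cre bound RNA, and none of the GTPases or class I genes below was lower.
Of 6 other interferon-inducible GTPases, 4, 5 and 4 were higher in total and 3, 3 and 2 in bound RNA. Gbp3, a guanylate-binding protein, was at least 26.3-fold, 20.2-fold and 15.6-fold higher in total and at least 15-fold, 8.9-fold and 5.65-fold higher in bound RNA.
Of 9 class I presentation genes, 8, 7 and 5 were higher in total and 6, 8 and 5 in bound RNA. B2m, the light chain of class I molecules, was 10.4-fold, 13-fold and 7.31-fold higher in bound RNA (adjusted p = 0.000272, 7.81e-05 and 0.00173, limma). Without array 1 the Recruited bound counts were 0 of 20 antiviral effectors, 0 of 6 GTPases and 3 of 9 class I genes, and the Recruited total counts were 6, 1 and 4. In Pdgf Cre bound RNA without array 1 they were 7, 1 and 5, and in Pdgf bound RNA without array 3 they were 10, 2 and 3. Shares of all genes were not counted without those arrays.
Of 3 tested relatives in the Ifitm and Rtp families, Ifitm2 was called higher in bound RNA of all variations, at least 1.37-fold in Pdgf and 1.09-fold in Recruited tumours, relative to cortical Olig2 cells. Ifitm1 was at least 2.75-fold, 2.34-fold and 6.62-fold lower in bound than in total RNA of Pdgf, Pdgf Cre and Recruited tumours (adjusted p = 1.06e-06, 4.75e-07 and 5e-08, limma). In that comparison Ifitm3 was not called on the quantile scale without a block.

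The GTPases, class I genes and antiviral effectors divided the Pdgf Cre and Recruited arrays as the tested members did, and some other lists did not. Array 1 was the highest for 6 of 6 other GTPases and 9 of 9 class I genes in Pdgf Cre and Recruited bound and total RNA, and for 15, 20, 20 and 19 of 20 antiviral effectors in Pdgf Cre bound, Pdgf Cre total, Recruited bound and Recruited total RNA. For the 3 other Ifitm and Rtp genes, array 1 was the highest for 0 in Recruited bound and total RNA, and array 2 for 3 and 2. Of 5 receptors, 1, 4, 3 and 3 were highest on array 1 in Pdgf Cre bound, Pdgf Cre total, Recruited bound and Recruited total RNA. Outside the pathway, 6, 6, 0 and 1 of 7 mature oligodendrocyte markers were highest on array 1 in those groups, in that order. The same held for 6, 7, 2 and 7 of 8 progenitor markers. The summed signal of the 6 GTPases on arrays 1, 2 and 3 of Recruited bound RNA was 10309, 160.2 and 78.9, against 48.8 to 49.6 in cortical Olig2 cells. For class I genes it was 50799, 6459 and 3560 in Recruited bound RNA, against 2124 to 2742 in cortical Olig2 cells. In Pdgf tumours array 3 was the highest for 4 of 6 GTPases and 8 of 9 class I genes in bound RNA and for 6 of 6 and 7 of 9 in total RNA, whereas array 1 was the highest for 12 of 20 antiviral effectors in each.

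Markers of microglia and macrophages moved with some of these results, and their part in them was not tested. All 14 tested markers were higher in total RNA of each tumour variation than in total cortex RNA, with summed signals over 18 markers of 43579 to 48878 in Pdgf, 29461 to 55102 in Pdgf Cre and 7841 to 74888 in Recruited tumours, against 1599 to 2992 in cortex. In bound RNA 13 of 14 were lower than in total RNA in each variation. Of all genes, 32.2%, 38% and 44.3% were called in either direction there in Pdgf, Pdgf Cre and Recruited tumours. None of the 5 members was called lower on the quantile scale without a block. Ifitm3 was called lower in Recruited tumours with the pair as a block, and in Pdgf and Recruited tumours on spike-in scaling. The sums in bound RNA were 1241, 1642 and 831 in Pdgf, 1374, 382 and 1204 in Pdgf Cre and 7645, 1706 and 414 in Recruited tumours, against 204 to 235 in cortical Olig2 cells, with 6, 7 and 6 of 14 markers called higher. Being linear, these sums weigh the highest markers most. Ctss reached 12.58 log2 in tumour bound RNA, where the next highest marker, C1qb, reached 9.45, so a sum can follow 1 gene.
Array 1, the highest for the 5 tested members in Pdgf Cre and Recruited tumours, was also the highest for 12 of 14 markers in Pdgf Cre total RNA, 14 of 14 in Recruited total RNA and 11 of 14 in Recruited bound RNA. In Pdgf Cre bound RNA array 3 had nearly the marker sum of array 1 and the lowest levels of the 5 tested members, and array 1 was the highest for 3 of 14 markers. Ctss was above the dim limit on 9 of 9 tumour bound arrays (up to 12.58), C1qb on 6 (up to 9.45) and Tyrobp on 4 (up to 7.76). Of the 18 markers, 11 were dim on every tumour bound array, among them Csf1r, Aif1, Cx3cr1, P2ry12 and Tmem119, and Cx3cr1, Itgam, P2ry12 and Ptprc were at the lowest value of the scale. Of 13 lymphocyte and granulocyte markers measured, 0 were above the dim limit on any array.

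**Figure D5:**
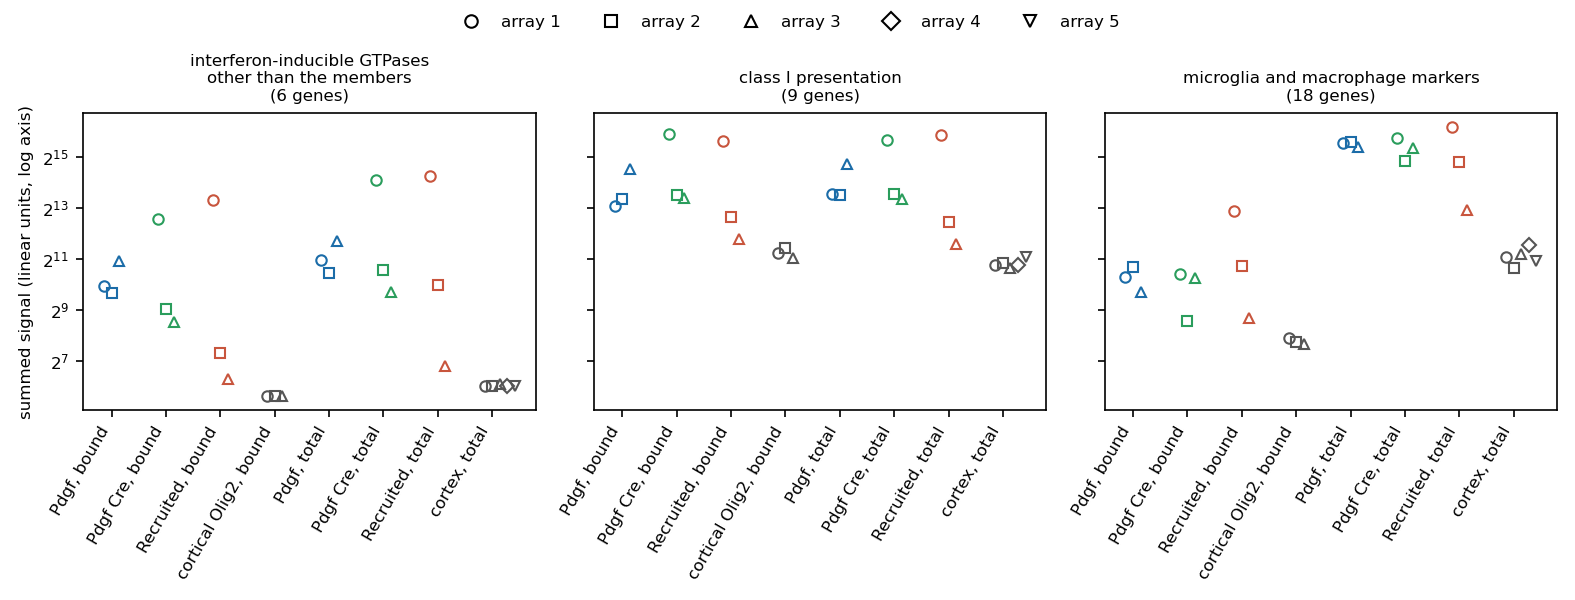
Summed linear signal (vertical log axis) of 6 other interferon-inducible GTPases, 9 class I presentation genes and 18 microglia and macrophage markers on each array, by group (horizontal axis). Array 1 of Pdgf Cre and Recruited tumours is highest in the first and second panels, while in Pdgf Cre bound RNA the marker sums of arrays 1 and 3 are close (1374 and 1204). Linear sums weigh the highest genes of a list most.

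Across the 12 group means, the 10 pairs of tested members correlated at Pearson r of 0.761 to 0.964. The genes whose group means most resembled the members' mean pattern were B2m (r = 0.975), Tubb6 (0.967), Gbp3 (0.956), Casp8 (0.948) and Clic1 (0.946). The nearest to single members were Gbp3 (0.989), Parp9 (0.975) and Pros1 (0.966) for Irgm1, B2m (0.961), Tubb6 (0.961) and Gsap (0.946) for Irf9, and Etv4 (0.968), Rps27l (0.966) and Cdc45 (0.963) for Rtp4. For Ifitm3 they were Zc3h7b (0.960), Igfbp2 (0.960) and Vim (0.934), and for Igtp Ccnd2 (0.949), Tmem183a (0.928) and H2-M3 (0.924). These values describe 12 groups that share arrays and scaling, and carry no test.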

How the data were processed

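RNA was amplified in 2 cycles and hybridised to 1-colour arrays, and the authors deposited log2 GCRMA values, per the submitters' processing notes (no version given). Each group has its own lowest value, so GCRMA may have been run group by group, and levels between groups rest on the scaling. Some deposited values were equal on several arrays of a cortical group, such as Rtp4 on the 3 cortical Olig2 arrays (4.88). Spread in such groups may be understated, which enters the spread shared over groups and the fits of only the groups compared. The deposited values were quantile-normalized over the 38 arrays, with the deposited values and 18 spike-in probe sets as alternative scales. Of 16395 probe sets, 64 were controls, 687 had no gene name and 15644 had 1 gene. The number of arrays limits the precision. Groups follow the labels. One limma model (limma 3.58.1, R 4.3.3) was fitted to 9799 genes over the 12 groups, after 5845 dim genes were left out, with p-values adjusted by Benjamini-Hochberg. The procedure was tested on simulated data. Beyond the members, the rule named up to 4 called genes per list and comparison with the largest change, the 5 genes most like the members' mean pattern and the 3 most like each member, and genes of the cell type lines as a check. The members, lists and rules were chosen with earlier results of these data known. Same-numbered bound and total arrays correlated in their deviations from the group means in Pdgf (0.626, 0.618 and 0.473), Pdgf Cre (0.621, 0.428 and 0.555) and Recruited tumours (0.466, 0.266 and 0.488), so the numbers pair them. No other pair of groups examined did so for all 3 numbers, and not every pair of the 12 groups was examined. The Recruited and Pdgf Cre arrays numbered 1 correlated at 0.482 in total and 0.25 in bound RNA. Their arrays numbered 2 and 3 gave -0.186 and -0.0364 in total and 0.0232 and 0.039 in bound RNA. Alternatives were the scales, the filter, the fit's settings, the replicate block and leaving out each array. Promoter sequences came from RefSeq.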

Additional observations from a re-analysis of the deposited data

Results flagged for a closer look

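Rtp4 and Irf9 differed between tumour variations by a test of the difference itself (limma). Rtp4 was lower in Recruited than in Pdgf tumours (-2.50 log2 in bound and -2.09 in total RNA) and than in Pdgf Cre tumours (-2.26 and -2.87). Irf9 was lower in Recruited than in Pdgf Cre tumours (-2.07 in bound and -2.64 in total RNA) and than in Pdgf total RNA (-2.49). All 7 differences have 3 arrays on each side, and array 1 of the Recruited group lay far above its other arrays for both genes, which were dim on arrays 2 and 3. A fit of only the groups compared called none of the 7 (adjusted p = 0.196 to 0.325, limma). On the deposited scale only Rtp4 stayed called, against Pdgf bound and Pdgf Cre total RNA. All 7 calls were also lost without array 1 of the Pdgf or Pdgf Cre group compared, or without Recruited array 3.

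The rule for a sample far from the others of its group needs at least 4 arrays. Total cortex RNA was thus the only group searched, and groups of 3 arrays were not. One sample was flagged. Irf9 was 3.65 on total cortex array 5, while the other 4 arrays lay between 3.21 and 3.22, a gap of 0.978 of the whole range. All 5 values are under the dim limit. Chance flags about 1 in 20 groups by this rule. The deposited values of arrays 1, 2 and 3 were equal (3.22), so that rate need not hold here.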

How the results depend on the processing

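A fit with trend and robust variance and a stricter filter left all 95 member differences and 48 counts of called members on the same side. Scaling mattered most for bound against total RNA and for pairs of variations. On the deposited scale the Irf9 difference between bound and total RNA turned to -0.14 in Pdgf and -0.020 in Pdgf Cre tumours, Ifitm3 turned to 0.17 in Recruited against Pdgf Cre bound RNA and 0.42 in total RNA, and the tumour mean of bound minus total against cortical Olig2 turned to 0.0076 for Ifitm3 and -0.34 for Irf9. Members called lower were then 3 in mature oligodendrocytes, 0 in Recruited against Pdgf Cre bound RNA, 0 in Recruited against Pdgf total RNA and 1 in Recruited against Pdgf Cre total RNA. On spike-in scaling Irf9 turned to -0.038 in Pdgf and -0.077 in Recruited bound against total RNA, and the tumour mean against cortical Olig2 turned to 0.24 for Ifitm3 and -0.11 for Irf9. Members called lower were 1 in Pdgf and 1 in Recruited bound against total RNA, 2 in neurons, 3 in mature oligodendrocytes, 1 in cortical Olig2 cells, 2 in Recruited against Pdgf bound RNA and 1 in total RNA. Ranges over arrays in Pdgf bound RNA became 2.69 for Irgm1, 3.19 for Igtp, 1.14 for Rtp4 and 1.56 for Irf9, and in Pdgf total RNA 0.21 for Ifitm3, 1.51 for Rtp4 and 0.32 for Irf9. Without the filter, 1 member was lower in Recruited against Pdgf Cre bound RNA and 1 in Recruited against Pdgf total RNA, and Igtp lost its calls in Pdgf and Pdgf Cre total RNA (adjusted p = 0.0548 and 0.0578). A fit of only the groups compared, with fewer samples, called 0 members higher in Recruited bound RNA than in cortical Olig2 cells, 1 higher in Pdgf bound than total RNA, 2 lower in neurons, 3 lower in mature oligodendrocytes, 2 higher and 1 lower in cortical Olig2 cells, and 0 in each of the 4 Recruited pairs. Apart from the fit of only the groups compared, the cause was not tested.

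With the replicate block, 1 member was higher and 1 lower in Recruited bound than total RNA, 1 was higher in progenitors, and 2 were lower in the tumour mean of bound minus total against cortical Olig2, where Irf9 turned to -0.055. Igtp lost its calls in Pdgf and Pdgf Cre total RNA (3.16 and 3.15, adjusted p = 0.0856 and 0.0754). Leaving out the pair numbered 1 of Recruited tumours gave 1 member higher and 1 lower in bound than total RNA and 2 lower in the tumour mean against cortical Olig2, with Irf9 at -0.042. Leaving out Recruited pair 2 turned Irgm1 to 0.054 and Igtp to 0.59 in bound against total RNA and Ifitm3 to 0.11 in the tumour mean, and leaving out Pdgf Cre pair 2 turned Irf9 to -0.017 there.

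Leaving out 1 array at a time, which in bound against total RNA breaks a pair and so shifts the difference by construction, members called higher were 2 to 4 in Recruited total RNA, 1 to 3 in Recruited bound RNA, 1 to 2 in progenitors and 0 to 2 in Recruited bound against total RNA. Members called lower were 0 to 1 in Pdgf and in Pdgf Cre bound against total RNA, 0 to 2 in Recruited, 0 to 4 in Recruited against Pdgf bound, Pdgf Cre bound and Pdgf total RNA, 0 to 3 against Pdgf Cre total RNA, and 0 to 2 in the tumour mean against cortical Olig2. The number of all genes called was counted only on the 3 scales, not in the other settings. Differences that turned were Igtp in Recruited total RNA (-0.74 to 2.85), and Igtp (-0.41 to 3.29) and Rtp4 (-0.31 to 1.95) in Recruited bound RNA. In bound against total RNA they were Igtp in Pdgf (-0.88 to 0.19), Irgm1 (-1.17 to 0.53), Igtp (-0.65 to 2.28), Rtp4 (-0.014 to 1.27) and Irf9 (-0.37 to 1.04) in Pdgf Cre, and Irgm1 (-2.36 to 0.87), Igtp (-2.47 to 2.11), Rtp4 (-0.31 to 2.71) and Irf9 (-0.64 to 2.28) in Recruited tumours. Between variations they were Ifitm3 in Recruited against Pdgf bound (-0.90 to 1.21), Pdgf Cre bound (-1.67 to 0.72), Pdgf total (-0.59 to 1.18) and Pdgf Cre total RNA (-0.87 to 0.90), and Irgm1 against Pdgf total (-2.68 to 0.33) and Pdgf Cre total RNA (-2.30 to 0.71). In the tumour mean against cortical Olig2 they were Ifitm3 (-0.65 to 0.087), Igtp (-0.0095 to 1.52) and Irf9 (-0.49 to 0.48).

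The median of all genes shifted by up to 0.66 log2 on the deposited scale (neurons) and -0.57 on spike-in scaling (astrocytes). The share of calls that were higher was 49.5% in Pdgf and 47.3% in Recruited total RNA and became 65.6% and 69.4% on the deposited scale. In bound RNA against cortical Olig2 it was 49.2% in Pdgf Cre, with 62% on spike-in scaling, and 47% in Recruited, with 63.4% on the deposited scale. In bound against total RNA it was 52.4%, 52.5% and 54.4% in Pdgf, Pdgf Cre and Recruited tumours, with 18.6%, 24.1% and 32.4% on the deposited scale and 22.6%, 33.7% and 27.7% on spike-in scaling. It was 47.5% in neurons (75.4% deposited), 51% in astrocytes (35.1% spike-in) and 52.5% in cortical Olig2 cells (40.4% spike-in). In Recruited against Pdgf Cre bound RNA it was 50.7% (70.7% deposited, 34.1% spike-in), in total RNA 49.3% (74.7% deposited), and in the tumour mean against cortical Olig2 49.7% (35.9% deposited). Dim values limit Irf7 in every group and Rtp4 and Irf9 in cortex.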
